A study of Mus musculus with 12 samples.

Results

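The genes by which fat cells take up and activate fatty acids were followed in epididymal white adipose tissue (eWAT) of mice on a high-fat diet (HFD). The 10 genes, Lpl, Lmf1, Gpihbp1, Angptl4, Vldlr, Cd36, Slc27a1, Slc27a4, Fabp4 and Acsl1, were listed by symbol, and 10 of 10 were found among the 49315 genes of the count table. The list did not use their measured values, but it was chosen with earlier results of these data known. All 4 groups were male mice that ate the 60% HFD over 12 weeks. KO mice were miR-181a2b2-/-, with the microRNA locus Mir181a2b2 deleted in every tissue, and control mice were miR-181a2b2flox/flox littermates (flox), which carry loxP sites around an intact locus. Each genotype was injected once a week into the peritoneum with vehicle or with methotrexate (MTX) at 1 mg/kg, and 3 libraries were sequenced per group. The ages of the mice are not given in the sources used here. The labels call the RNA polyA, whereas ribosomal RNA was depleted according to the methods, and the sources used here do not settle the point.

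Triglyceride in the blood reaches fat cells in steps. Lipoprotein lipase (LPL), made by adipocytes and folded with the help of LMF1, is carried across the capillary wall by the endothelial protein GPIHBP1, is inhibited by ANGPTL4, and works beside VLDLR, a receptor that binds triglyceride-rich lipoproteins. The fatty acids it frees enter the cell with the help of the scavenger receptor CD36 and of the fatty acid transport proteins FATP1 (Slc27a1) and FATP4 (Slc27a4), which also act as acyl-CoA synthetases. Inside the adipocyte FABP4 binds them, and ACSL1 joins them to coenzyme A, the step that commits them to storage or oxidation.

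The deleted locus encodes the precursors of 2 microRNAs on chromosome 2. Their mature strands are shown because they are what the KO mice lack from this locus, although other loci encode miR-181 microRNAs as well. The sequences are those of RefSeq on GRCm38.p6, at chr2:38852741-38852763 and chr2:38853845-38853868, both on the + strand. Capitals mark the seed, bases 2 to 8, which both share.
mmu-miR-181a-5p: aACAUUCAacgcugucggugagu
mmu-miR-181b-5p: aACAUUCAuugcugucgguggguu
Reads on the precursor genes Mir181a-2 and Mir181b-2 were too few to check the deletion, with 2 counts for Mir181a-2 in flox MTX replicate 4 and 0 counts for either gene in all remaining cases.

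The 3′ UTRs of the 10 genes were searched for the 7 letters that pair with this seed, TGAATGT, on the transcribed strand. A match was found in Gpihbp1, at chr15:75598180-75598208 (+), and another in Acsl1, at chr8:46535927-46535955 (+), both in GRCm38. The stretches around them are shown with the match in capitals.
Gpihbp1: tcagagaataaactTGAATGTcgtttgcc
Acsl1: tcacaacggggtttTGAATGTttgctttc
The match starts at base 70 of the 89 bases of the Gpihbp1 3′ UTR and at base 1461 of the 1571 bases of the Acsl1 3′ UTR, and neither is followed by an A. Of the 15294 tested genes with an annotated 3′ UTR, 16.3% hold at least 1 such match. Their median 3′ UTR is 952 bases long, against 1604 bases for the 10 genes, and the matches per kilobase are 0.143 over all genes and 0.129 over the 10 genes.

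Depth was 19495310 to 23976469 counts per library, and the 10 genes were all well above the floor, with 487 counts or more in every library. All 10 passed the filter on low counts. Adipocyte RNA was found in every library, with 14 of 14 adipocyte genes above 0, though a count above 0 cannot by itself identify the tissue. The groups also differed in the markers of other cells, given here as sums in CPM (counts-per-million). The 10 genes of testis germ cells summed to 206 to 601 in the flox vehicle libraries and to 0.260 to 12.5 elsewhere. The 15 genes of the epididymis summed to 4698, 12393 and 1523 in flox vehicle replicates 1, 3 and 4, to 504 in flox MTX replicate 1 and to 1.75 to 24.9 in the other libraries. Macrophage genes summed to 768 to 1477 in flox vehicle, 5883 to 10423 in KO vehicle, 1221 to 6886 in flox MTX and 7834 to 12587 in KO MTX. Fibroblast genes summed to 2248 to 4326, 8185 to 12413, 4525 to 7581 and 8439 to 9946 in the same order, endothelial genes to 548 to 793, 1122 to 1671, 502 to 1066 and 718 to 1346, and adipocyte genes to 12263 to 30528, 8428 to 16826, 16912 to 32308 and 5137 to 13561. The part of these cells in the differences below was not tested, except where a value says otherwise.

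Levels were compared between the genes per kilobase of their principal transcript. In flox vehicle mice the mean levels, in CPM per kilobase ± SD over 3 libraries, were 14381 ± 6258 for Fabp4, 2661 ± 1073 for Lpl, 817 ± 220 for Cd36, 295 ± 136 for Acsl1, 225 ± 150 for Slc27a1, 174 ± 73.2 for Angptl4, 71.2 ± 6.10 for Gpihbp1, 17.0 ± 2.50 for Slc27a4, 16.1 ± 7.5 for Vldlr and 15.2 ± 2.96 for Lmf1. The libraries of Fabp4, Lpl, Cd36 and Gpihbp1 lay apart from those of their neighbours, while Acsl1 overlapped Slc27a1, Slc27a1 overlapped Angptl4, and Vldlr overlapped both Slc27a4 and Lmf1. Fabp4, Lpl, Cd36 and Acsl1 ranked highest in this order in all 4 groups, and Gpihbp1 ranked 7. Slc27a4 ranked 8 in flox vehicle, 9 in flox MTX and 10 in both KO groups. With the union of all exons as the length, Angptl4 ranked above Acsl1 and Slc27a1 in all 4 groups, Cd36 ranked above Lpl in KO MTX, and Slc27a4 ranked 8 or 9 in each group, with Lmf1 at 10.

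**Figure D1:**
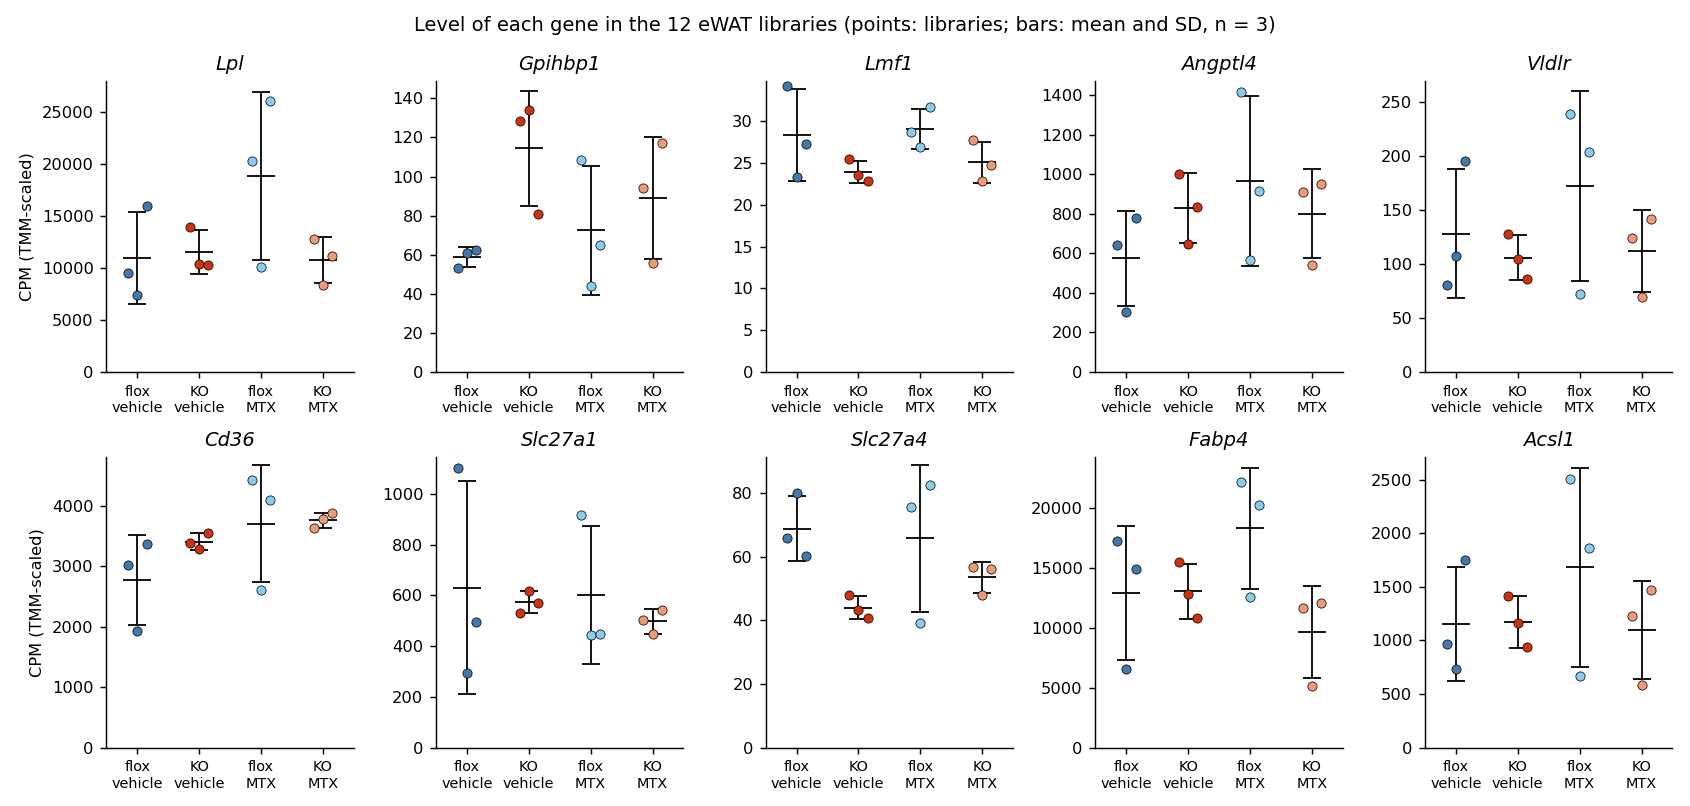
Level of each gene in CPM (vertical axes, each starting at 0) in the 12 libraries, by group, with 1 point per library and the mean with its SD. Gpihbp1 lay between 53.0 and 62.4 CPM in flox vehicle and between 80.7 and 134 CPM in KO vehicle, and Slc27a4 between 60.3 and 80.0 and between 40.8 and 47.8 CPM; the points of most other genes overlap between the groups.

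To ask what loss of the locus did in obese eWAT, KO mice were compared with flox mice under vehicle. Gpihbp1 was higher and Slc27a4 lower in KO mice, and the other 8 genes did not pass the test. Differences were tested with edgeR's quasi-likelihood test over all 18702 genes that passed the filter, and a call required a p adjusted by Benjamini-Hochberg that was below 0.1, together with a change of 1.5-fold or more. The test called 2 of the 10 genes, beside 31.7% of all genes tested. By libraries, the groups did not overlap in the same 2 genes, against 48.1% of all genes. Over the 10 genes, 6 log2 fold changes were above 0 and 4 below, with a median of 0.020, against -0.056 for all genes.

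Gpihbp1 (ENSMUSG00000022579) lies on chromosome 15 of GRCm38, at 75596628 to 75599481 on the + strand. In flox vehicle replicates 1, 3 and 4 its level was 53.0, 60.7 and 62.4 CPM, and in KO vehicle replicates 1, 2 and 3 it was 128, 134 and 80.7 CPM. Every KO library was above every flox library, and KO replicate 3 was nearest to them. The log2 fold change was 0.96 (SE 0.34, 95% interval 0.18 to 1.75), a 1.95-fold difference, with an adjusted p of 0.0552 by edgeR's quasi-likelihood test. GPIHBP1 is made by capillary endothelium, and the endothelial markers moved with it: 12 of 14 were called higher, with a median log2 fold change of 1.06. In bulk tissue, more cells of a type and more RNA per cell cannot be told apart. Relative to the summed endothelial genes, the Gpihbp1 count was 9.67%, 7.66% and 8.51% in the flox vehicle libraries and 8.58%, 8.02% and 7.20% in the KO vehicle libraries. These ratios overlapped, with a log2 difference of -0.12 (SE 0.12, exact permutation test, two-sided, p = 0.5, where 0.1 is the smallest p that 3 against 3 allows). The endothelial ratio was chosen after the values were seen.

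Slc27a4 (ENSMUSG00000059316), the transporter FATP4, lies on chromosome 2 of GRCm38, at 29802634 to 29817522 on the + strand. It was at 65.9, 80.0 and 60.3 CPM in flox vehicle and at 47.8, 43.1 and 40.8 CPM in KO vehicle. Every KO library was below every flox library. The log2 fold change was -0.65 (SE 0.23, 95% interval -1.18 to -0.11), with an adjusted p of 0.0586 by edgeR's quasi-likelihood test. The highest library of this comparison, flox vehicle replicate 3, was also the one with the highest sum of epididymis genes, 12393 CPM. Without it the log2 fold change was -0.52 with an adjusted p of 0.172 by edgeR's quasi-likelihood test. Within flox vehicle, Slc27a4 followed the order of the epididymis sums, highest in replicate 3 and lowest in replicate 4. Flox MTX replicate 4, outside this comparison, was higher still at 82.3 CPM, with an epididymis sum of at most 24.9 CPM. Its place above flox vehicle replicate 3 came from the TMM factors, 0.82 and 1.09. The counts were 1317 of 19495310 and 2034 of 23491634. The part of epididymis cells in the Slc27a4 call was not tested. Both calls rested on few libraries. Leaving out flox vehicle replicate 1 or 3 or KO vehicle replicate 2 ended both, with log2 fold changes of 0.84 to 0.99 for Gpihbp1 and of -0.67 to -0.52 for Slc27a4. Without KO vehicle replicate 1 the Gpihbp1 call was lost (0.90, adjusted p 0.122), and without KO vehicle replicate 3 the Slc27a4 call was lost (-0.59, adjusted p 0.172), both by edgeR's quasi-likelihood test.

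**Figure D2:**
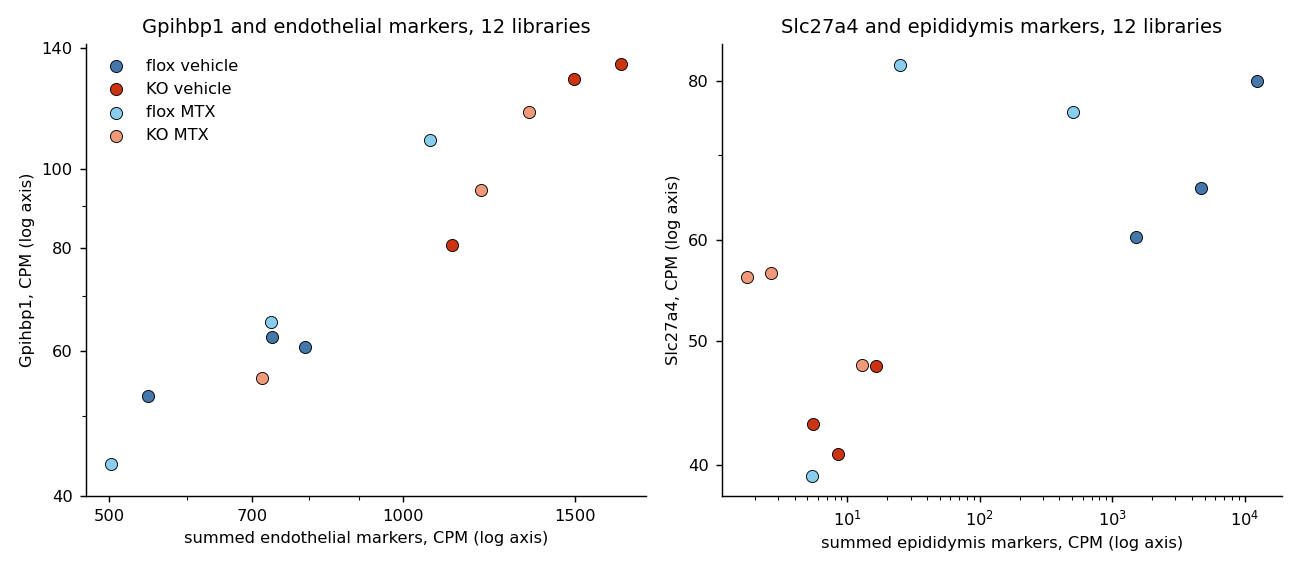
Gpihbp1 against the summed endothelial genes (left) and Slc27a4 against the summed epididymis genes (right), in CPM on log axes, with 1 point per library marked by group. Gpihbp1 follows the endothelial sum over the 12 libraries (r = 0.97), and the flox vehicle libraries stand apart on the right by their epididymis sums of 1523 to 12393.

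Among the other genes of the lipase, the KO and flox vehicle libraries overlapped. Lpl was at 9538, 7413 and 15897 CPM in flox vehicle and at 13966, 10359 and 10313 CPM in KO vehicle, so that flox vehicle replicate 4 was highest and replicate 3 lowest of the 6. Its log2 fold change was 0.08 (SE 0.42, 95% interval -0.89 to 1.05). Angptl4, the inhibitor of the lipase, was at 640, 306 and 777 CPM in flox vehicle and at 1002, 646 and 835 CPM in KO vehicle, with a log2 fold change of 0.53 (SE 0.40, 95% interval -0.40 to 1.45). Lmf1, the lipase maturation factor, ranged from 23.4 to 34.2 CPM and from 22.8 to 25.4 CPM, with a log2 fold change of -0.24 (SE 0.15). Vldlr ranged from 80.8 to 195 CPM and from 86.3 to 127 CPM, with a log2 fold change of -0.27 (SE 0.44). The widths of the 95% intervals leave room for changes of 1.5-fold or more in Lpl, Angptl4 and Vldlr. The interval of Lmf1, -0.59 to 0.11, barely reaches that size, as a decrease.

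Cd36, the scavenger receptor, was at 3018, 1938 and 3374 CPM in flox vehicle and at 3387, 3290 and 3558 CPM in KO vehicle. The KO libraries lay close together, with a coefficient of variation of 3.98% against 26.9% in flox mice, and the log2 fold change was 0.30 (SE 0.27, 95% interval -0.33 to 0.93). Slc27a1, the transporter FATP1, was at 1101, 295 and 494 CPM in flox vehicle and at 529, 617 and 571 CPM in KO vehicle. The flox libraries spread on both sides of the KO libraries, with coefficients of variation of 66.7% and 7.66%, and the log2 fold change was -0.14 (SE 0.42). Fabp4, the intracellular carrier, was at 17201, 6547 and 14908 CPM in flox vehicle and at 15449, 12802 and 10814 CPM in KO vehicle. Its log2 fold change was 0.02 (SE 0.45), and it was -0.0098 with RLE factors in place of TMM. Acsl1, the synthetase, was at 967, 736 and 1750 CPM in flox vehicle and at 1417, 1163 and 935 CPM in KO vehicle, with a log2 fold change of 0.03 (SE 0.49). Flox vehicle replicate 3 was the lowest of its group in 7 of the 10 genes, against 31.7% of all genes.

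Under MTX, no gene of the 10 was called between KO and flox mice by edgeR's quasi-likelihood test, and the share of all genes called was 0%. At an unadjusted p below 0.05 there were 0 of the 10 and 4576 of all genes, and the smallest adjusted p over all genes was 0.104. DESeq2 called 1 of the 10, Fabp4, and 2740 of all genes. By sign, 2 of the 10 log2 fold changes were above 0 and 8 below, with a median of -0.29, against -0.045 for all genes. By libraries, 1 of the 10 did not overlap between the groups, against 26.8% of all genes.

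That gene was Fabp4 (ENSMUSG00000062515, chromosome 3 of GRCm38, 10204088 to 10208576, - strand), at 22107, 12573 and 20205 CPM in flox MTX replicates 1, 2 and 4 and at 11653, 5180 and 12029 CPM in KO MTX replicates 2, 3 and 4. Every KO library was below every flox library, although the lowest flox library and the highest KO library were close. The log2 fold change was -0.93 (SE 0.46, 95% interval -1.98 to 0.13), with an adjusted p of 0.236 by edgeR's quasi-likelihood test and 0.0934 by DESeq2. Lpl (ENSMUSG00000015568, chromosome 8, 68880491 to 68907448, + strand) was at 20311, 10066 and 26071 CPM in flox MTX and at 12769, 8387 and 11125 CPM in KO MTX. Flox MTX replicate 2 lay among the KO libraries, and the log2 fold change was -0.81 (SE 0.42, 95% interval -1.78 to 0.17), with an adjusted p of 0.262 by edgeR's quasi-likelihood test.

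The values of the other genes under MTX overlapped. Acsl1 was at 2506, 673 and 1864 CPM in flox MTX and at 1228, 588 and 1472 CPM in KO MTX (log2 fold change -0.62, SE 0.49), and Vldlr was at 239, 72.6 and 204 CPM and at 124, 69.0 and 142 CPM (-0.62, SE 0.44). In both genes flox MTX replicate 2 and KO MTX replicate 3 were the lowest of their groups. Gpihbp1 was at 108, 43.8 and 65.0 CPM in flox MTX and at 94.2, 55.7 and 117 CPM in KO MTX, with a log2 fold change of 0.30 (SE 0.34, 95% interval -0.48 to 1.08). Slc27a4 was at 75.5, 39.3 and 82.3 CPM and at 56.6, 47.9 and 56.1 CPM, with a log2 fold change of -0.29 (SE 0.23). Relative to the summed endothelial genes, Gpihbp1 was at 10.2%, 8.73% and 8.88% in flox MTX and at 7.85%, 7.76% and 8.70% in KO MTX, a log2 difference of -0.19 (SE 0.087, two-sided exact permutation test, p = 0.1, which is the smallest possible). The log2 fold changes of Cd36, Slc27a1, Angptl4 and Lmf1 were 0.02, -0.28, -0.27 and -0.21.

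Within each MTX group the 10 genes were low together in 1 library. Flox MTX replicate 2 was the lowest of its group in 10 of the 10 genes, against 33.8% of all genes, and KO MTX replicate 3 in 9 of the 10, all but Cd36, against 39.1% of all genes. These libraries had the highest macrophage sums of their groups, 6886 and 12587 CPM, the highest lymphocyte sums, 348 and 281 CPM, and the highest mesothelium sums, 519 and 303 CPM. They also had the lowest adipocyte sums of their groups, 16912 and 5137 CPM, and the lowest endothelial sums, 502 and 718 CPM. Whether the tissue composition of these samples accounts for the low values was not tested. Without flox MTX replicate 2 the test called Lpl (log2 fold change -1.11, adjusted p 0.0769) and Vldlr (-0.99, adjusted p 0.0970) lower in KO than in flox mice, by edgeR's quasi-likelihood test. Of the 47 further pathway genes described below, the same fit called 3 higher and 12 lower, so gained calls were not particular to the 10 genes.

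To ask what MTX did in the presence of the locus, flox mice given MTX were compared with flox mice given vehicle. No gene of the 10 was called by edgeR's quasi-likelihood test, beside 24.2% of all genes, and 0 of the 10 had an unadjusted p below 0.05. DESeq2 called 0 of the 10 as well. By sign, 8 of the 10 log2 fold changes were above 0 and 2 below, with a median of 0.42, against 0.051 for all genes. Lmf1, among the 8, was at 0.04 with TMM factors but at -0.16 when only library size was scaled for, where the median over all genes was -0.15. The groups overlapped in 10 of the 10 genes, whereas 28.3% of all genes did not overlap.

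The larger values were those of the lipase, its inhibitor and the genes for storage. Lpl had a mean of 18816 ± 8106 CPM (SD, n = 3) in flox MTX and 10949 ± 4415 CPM in flox vehicle, with a log2 fold change of 0.78 (SE 0.42, 95% interval -0.19 to 1.76) and an adjusted p of 0.218 by edgeR's quasi-likelihood test. Angptl4 was at 1416, 564 and 916 CPM in flox MTX, and its log2 fold change was 0.75 (SE 0.40, 95% interval -0.18 to 1.67) with an adjusted p of 0.213 by edgeR's quasi-likelihood test. In both genes flox MTX replicate 2 lay within the flox vehicle range and the other MTX libraries above it. Without that library Lpl (1.09, adjusted p 0.0747) and Angptl4 (1.03, adjusted p 0.0906) were called, and without flox vehicle replicate 4 Lpl was called (1.16, adjusted p 0.0769), by edgeR's quasi-likelihood test. Without flox MTX replicate 2 the same test called 4685 of all 19532 genes tested. Without flox vehicle replicate 4 it called 5995 of all 19402 genes tested. Calls in these fits were thus not particular to the lipase and its inhibitor. The log2 fold changes were 0.55 (SE 0.49) for Acsl1, 0.51 (SE 0.45) for Fabp4, 0.43 (SE 0.44) for Vldlr and 0.42 (SE 0.27) for Cd36. Cd36 was at 4426, 2606 and 4096 CPM in flox MTX, and Slc27a1 at 916, 444 and 447 CPM. Gpihbp1, Slc27a1 and Slc27a4 were at 0.30, -0.07 and -0.07 on the log2 scale.

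In KO mice, MTX was compared with vehicle to ask what the drug did without the locus. No gene of the 10 was called by edgeR's quasi-likelihood test or by DESeq2, and the share of all genes called by edgeR was 0%. At an unadjusted p below 0.05 there were 0 of the 10 and 1491 of all genes, and DESeq2 called 276 of all genes. By sign, 4 of the 10 log2 fold changes were above 0 and 6 below, with a median of -0.072, against -0.011 for all genes. The groups did not overlap in 2 of the 10 genes, against 20.7% of all genes. They were Cd36, at 3631, 3779 and 3876 CPM in KO MTX (log2 fold change 0.14, SE 0.27), and Slc27a4, at 56.6, 47.9 and 56.1 CPM (0.29, SE 0.23). In both, every MTX library was above every vehicle library by a small margin. The largest value was that of Fabp4, -0.44 (SE 0.45, 95% interval -1.48 to 0.61), followed by Gpihbp1 at -0.36 (SE 0.34).

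Whether MTX acted differently in the genotypes was tested as the interaction, the log2 change with MTX in KO mice minus that in flox mice. No gene of the 10 was called, beside 0.989% of all genes, and 0 of the 10 had an unadjusted p below 0.05, by edgeR's quasi-likelihood test. DESeq2 also called 0 of the 10. By sign, 2 interaction values were above 0 and 8 below, with a median of -0.50, against -0.051 for all genes. Slc27a1 was at -0.14 with TMM factors and at 0.029 when only library size was scaled for. The lowest were Fabp4 at -0.94 (SE 0.64, 95% interval -2.42 to 0.54), Lpl at -0.88 (SE 0.60, 95% interval -2.26 to 0.49), Angptl4 at -0.80 (SE 0.57), Gpihbp1 at -0.66 (SE 0.48) and Acsl1 at -0.64 (SE 0.69). The test did not separate the responses of flox and KO mice in these genes, and the intervals leave room for differences of more than 2-fold in both Lpl and Fabp4.

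**Figure D3:**
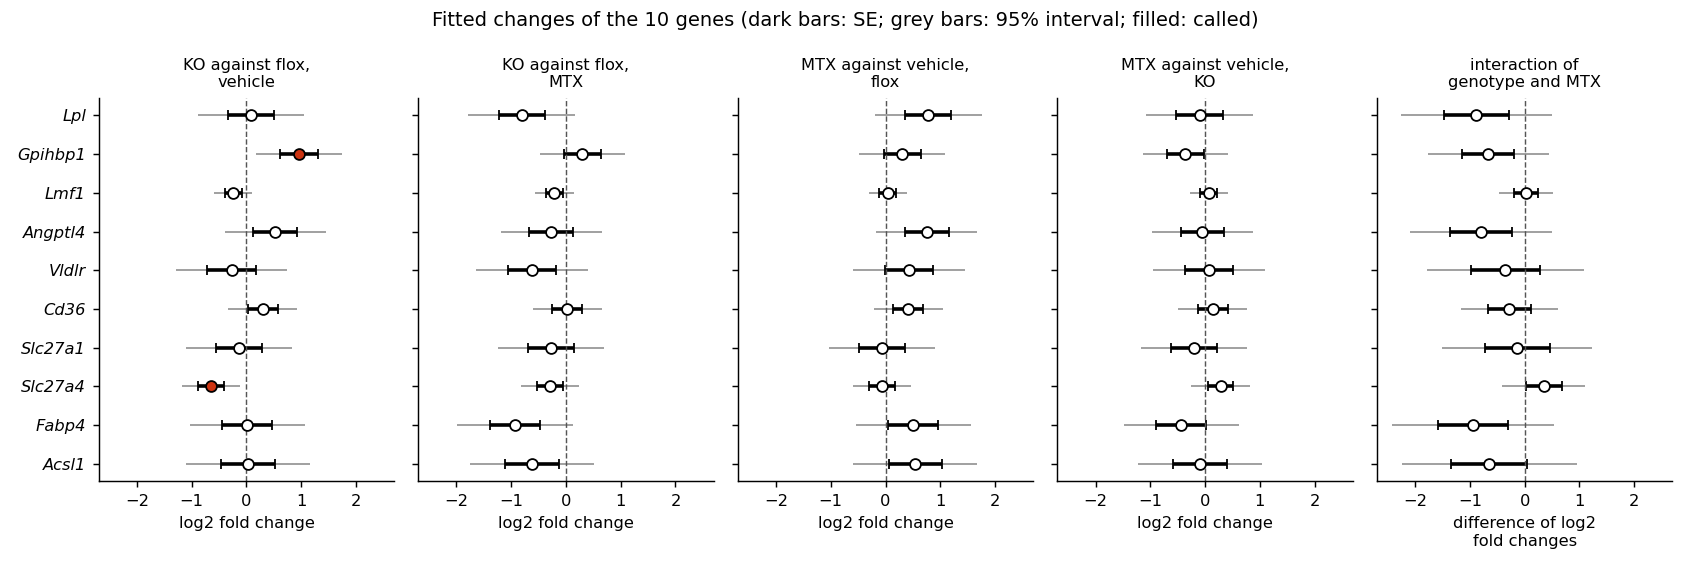
Log2 fold change of each gene (vertical axis) in the 4 comparisons of groups and the interaction, with the SE as dark bars and the 95% interval as grey bars, where filled points are called. Only Gpihbp1 (0.96) and Slc27a4 (-0.65) in KO against flox mice under vehicle are filled.

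Because the adipocyte markers differed between the genotypes, each gene was also expressed relative to the summed counts of the 14 adipocyte markers of the same library, a ratio in which the scaling of the library cancels. Under vehicle the ratio was higher in KO than in flox mice in 10 of the 10 genes, with a median log2 difference of 0.87, against 0.73 for all genes. The groups did not overlap in 6 of the 10, against 31.5% of all genes. These were Gpihbp1 (1.70), Angptl4 (1.38), Cd36 (1.10), Lpl (0.90), Fabp4 (0.88) and Acsl1 (0.87), each at the smallest p possible, 0.1, by the two-sided exact permutation test. Under MTX the ratio was again higher in KO mice in 10 of the 10 genes, with a median of 1.08, against 1.28 for all genes. The groups did not overlap in 6 of the 10, against 61.2% of all genes. These were Gpihbp1 (1.63), Cd36 (1.36), Slc27a1 (1.11), Angptl4 (1.09), Lmf1 (1.09) and Slc27a4 (1.07). The divisor was lower on average in KO mice. Its CPM ranges overlapped under vehicle (12263 to 30528 in flox, 8428 to 16826 in KO) but not under MTX (16912 to 32308 and 5137 to 13561). Under vehicle 13 of the 14 adipocyte markers had log2 fold changes below 0 in KO mice and 5 were called lower, against 17.8% of all genes. Under MTX 14 of 14 were below 0, where 0% of all genes were called.

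In single libraries, Cd36 counts were 9.89%, 15.8% and 15.03% of the adipocyte sum in flox vehicle, 20.1%, 27.3% and 42.2% in KO vehicle, 18.8%, 15.4% and 12.7% in flox MTX and 29.4%, 73.6% and 28.6% in KO MTX. Every KO library was above every flox library, and KO MTX replicate 3 stood highest. That library had the lowest adipocyte sum, 5137 CPM, and the highest ratio of its group in each of the 10 genes. Between MTX and vehicle the ratios overlapped in 10 of the 10 genes in flox mice, where 14.7% of all genes did not overlap, and in 10 of the 10 in KO mice, where 4.08% did not. The median log2 differences were 0.18 in flox mice, with 7 genes higher and 3 lower, and 0.24 in KO mice, with 8 higher and 2 lower. Over all genes they were -0.17 and 0.31.

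**Figure D4:**
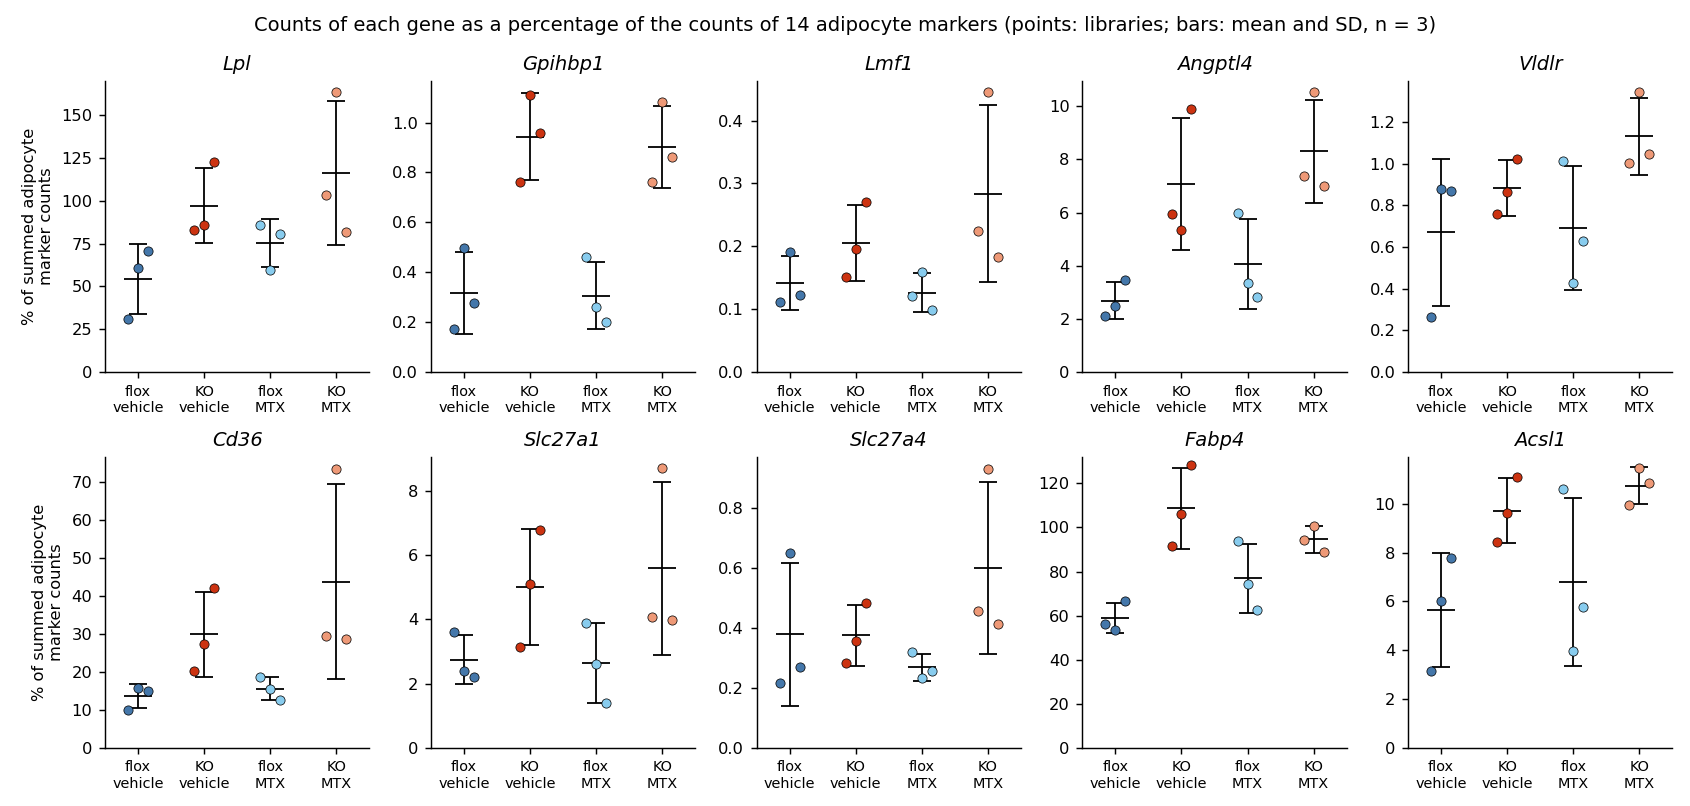
Counts of each gene as a percentage of the summed counts of 14 adipocyte markers in the same library, by group, with 1 point per library. The Cd36 points lie between 9.89% and 18.8% in the flox groups and between 20.1% and 73.6% in the KO groups.

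The 10 genes differed in how far they varied over the 12 libraries. The highest library exceeded the lowest 4.63-fold for Angptl4, 4.27-fold for Fabp4, 4.26-fold for Acsl1, 3.73-fold for Slc27a1, 3.52-fold for Lpl, 3.47-fold for Vldlr, 3.06-fold for Gpihbp1, 2.28-fold for Cd36, 2.10-fold for Slc27a4 and 1.5-fold for Lmf1. Correlations of log2 CPM across the 12 libraries are given as descriptions, since the libraries share groups, tissue composition and scaling. Of the 45 pairs of genes, 43 had an r above 0 and 5 an r of 0.8 or more, with a median of 0.47, and 0.62 with the group means removed. The most alike were Vldlr and Acsl1 (r = 0.94), Lpl and Acsl1 (0.87), Cd36 and Angptl4 (0.86), Lpl and Vldlr (0.85), and Angptl4 and Acsl1 (0.80). The least alike were Gpihbp1 and Lmf1, at -0.27.

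The genes also differed in which cell markers they followed. Lmf1 and Fabp4 followed the adipocyte sum most closely, with r = 0.87 and 0.86. Next were Lpl (0.64), Acsl1 (0.63), Vldlr (0.58), Slc27a4 (0.56), Slc27a1 (0.41) and Angptl4 (0.34), and r was 0.078 for Cd36 and -0.077 for Gpihbp1. With group means removed, r with that sum was 0.52 for Cd36 and 0.57 for Gpihbp1, beside 0.54 for Vldlr. Gpihbp1 followed the endothelial sum, with r = 0.97 and rho = 0.95, 0.97 with group means removed and 0.95 without the 2 libraries farthest from the median. Slc27a4 was higher where the epididymis sum was higher (r = 0.64) and lower where the macrophage sum was higher (r = -0.77). Among all genes tested, the gene most like each one over the 12 libraries was Cdh13 for Gpihbp1 (r = 0.97), Gpd1 for Acsl1 (0.98), Grina for Fabp4 (0.98), Taldo1 for Lpl (0.98), Paqr9 for Vldlr (0.98), Lamb1 for Cd36 (0.97), Psmd5 for Slc27a4 (0.96), Slc38a10 for Angptl4 (0.94), Fbxo45 for Lmf1 (0.93) and Angpt1 for Slc27a1 (0.92).

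**Figure D5:**
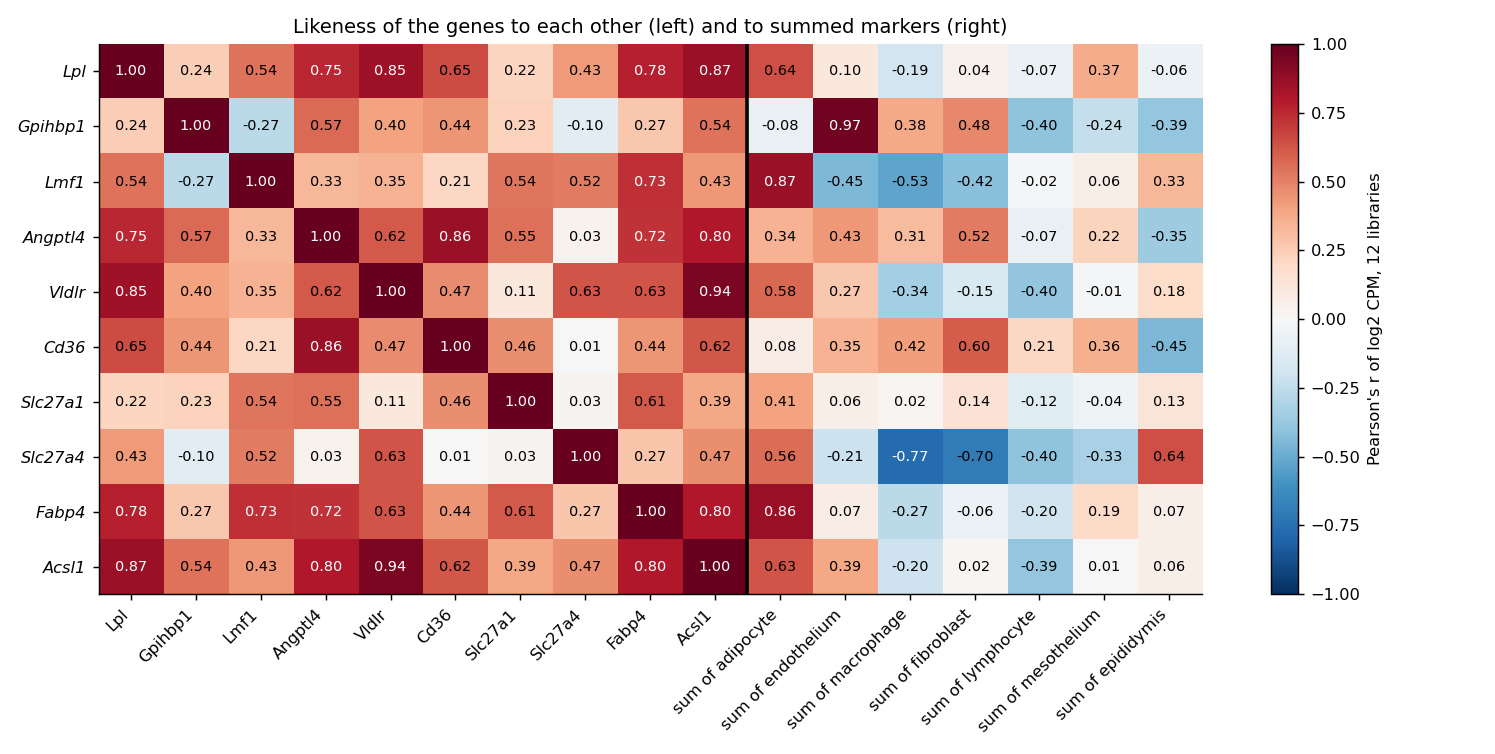
Pearson r of log2 CPM over the 12 libraries between the 10 genes and with the summed markers of other cell types, as a color scale from -1 to 1. Vldlr with Acsl1 (0.94) and Gpihbp1 with the endothelial sum (0.97) are the highest values of the gene and marker parts.

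The wider pathway was followed in 54 further genes, of which 47 were tested: partners of the lipase, lipoprotein receptors, other fatty acid transport and binding proteins, other acyl-CoA synthetases, and genes of caveolae and membrane uptake. Between KO and flox mice under vehicle 6 of the 47 were called higher and 15 lower, against 13.9% and 17.8% of all genes tested. Those called higher were Fabp5, a binding protein of macrophages and fat cells (log2 fold change 1.37), the brain-type Fabp7 (2.94), the receptors Lrp1 (0.92) and Scarb1 (0.83), the transporter Slc27a3 (0.71) and the mitochondrial acetyl-CoA synthetase Acss1 (0.67). Fabp5 was at 129, 88.1 and 261 CPM in flox vehicle and at 387, 366 and 485 CPM in KO vehicle. All KO libraries were above all flox libraries.

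Of the 15 called lower, 7 were acyl-CoA synthetases, whose list gave 13 of the 47 genes tested, and 17.8% of all genes were called lower. The 7 were Acsl4 (-1.54), which favors arachidonic acid, Acsl6 (-3.85), Acsbg1 (-2.29), Acsm3 (-2.45), Acsm5 (-1.60), Acss3 (-1.30) and Acsbg2. By libraries, the groups overlapped in Acsl6, Acsm3 and Acss3, and in Lrp8 below. Levels of Acsl6 and Acsm3 were low, with flox vehicle means of 1.87 and 5.48 CPM. Acsbg2, a synthetase of the testis, had 0 counts in the KO vehicle libraries and a mean of 3.77 CPM in flox vehicle, which is at least 27.0-fold lower in KO mice with a floor of 3 counts per library. The others were the endothelial lipase Lipg (-6.09), the testis binding protein Fabp9 (-5.50), Got2, the mitochondrial aspartate aminotransferase also described as a fatty acid binding protein of the membrane (-2.75), Slc27a2 (-2.21), the receptors Lrp8 (-1.67) and Lsr (-1.22), and the palmitoyltransferases Zdhhc4 (-0.70) and Zdhhc5 (-0.66). Lipg was at 50.2, 106 and 23.6 CPM in flox vehicle and at 0.756, 1.10 and 0.750 CPM in KO vehicle. Got2 was at 231, 502 and 98.8 CPM and at 37.0, 39.98 and 46.9 CPM. Both followed the order of the epididymis sums in the flox vehicle libraries, highest in replicate 3 and lowest in replicate 4, and the part of those cells in the calls was not tested. Of the 21 calls, those of Fabp5, Fabp7, Acsl4, Acsl6, Acsbg1, Acsbg2, Fabp9, Got2, Lipg and Lsr held at these limits in every alternative fit that tested them, and the others were lost in at least 1. With a log2 limit of 1.5, Fabp5 and Lsr were also not called.

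With MTX in flox mice 3 of the 47 were called higher, Fabp5 (1.13), Scarb2 (0.65) and Acss1 (0.62), and 11 lower, against 8.09% and 16.1% of all genes. The 11 were Slc27a2 (-7.44), Acsbg2 (-7.39), Fabp9 (-6.31), Acsbg1 (-4.45), Lipg (-4.30), Acsl6 (-3.58), Fabp3 (-3.18), Got2 (-2.69), Lrp8 (-1.95), Acsl4 (-1.06) and Lsr (-0.93). This comparison and that of KO with flox mice share the flox vehicle libraries. Fabp3 was at 0.911, 1.69 and 26.5 CPM in flox vehicle, and without replicate 4, the highest, its log2 fold change was -0.29 and not called; it was also not called without flox MTX replicate 1 or 4. The calls of Slc27a2, Acsbg2, Fabp9, Acsbg1, Lipg, Got2 and Acsl4 held at these limits in every alternative fit that tested them, library left out included, but Acsl4 was not called with a log2 limit of 1.5. No gene of the 47 was called between KO and flox mice under MTX by edgeR's quasi-likelihood test. By that test 13 had an unadjusted p below 0.05, against 24.5% of all genes, with values from -1.91 for Acsm5 to 1.57 for Fabp7. DESeq2 called 2 higher and 10 lower. With MTX in KO mice no gene of the 47 was called by edgeR's test, and 3 had an unadjusted p below 0.05, against 7.97% of all genes. DESeq2 called 0 higher and 2 lower there. Its calls over all genes in both comparisons are those given with the 10 genes above. The interaction was called for Lipg, Fabp9, Got2 and Acsl4.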

How the data were processed

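RNA of eWAT was sequenced by the authors in 12 libraries, 3 per group. Per the submitters' processing notes and the methods, the authors trimmed the reads (Trimmomatic 0.36), aligned them to GRCm38 (STAR 2.5.2b) and counted them per Ensembl gene (featureCounts, Subread 1.5.2). The strand setting is not given in the sources used here. The deposited values are raw whole-number counts.

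From these counts, differences were computed in R 4.3.3 with edgeR 4.0.16: TMM factors, filterByExpr by group, 1 fit of the 12 libraries with 8 residual degrees of freedom, the quasi-likelihood test and Benjamini-Hochberg adjustment over the 18702 genes tested. Calls required an adjusted p under 0.1 together with a change of 1.5-fold or more. SEs and 95% intervals come from this fit. CPM uses TMM factors, in the marker sums as well. Log2 CPM for correlations had a prior count of 2. Ratios were compared with exact permutation tests (scipy 1.17.1). Transcripts are those of GENCODE M21, the longest of the best APPRIS level. The floor used for a gene with 0 counts was 3 counts, for counting error only.

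The 10 genes, the pathway and marker lists and the tests were chosen with earlier results of these data known. Of the pathway genes, those called in a comparison and those with the largest change in each direction are named; 1 gene of the lists is not reported here. Alternatives were DESeq2 1.42.0, other scalings and filters, the replicate number as a block, other limits, the 6 libraries alone and each library left out. Replicates are separate samples per the labels, and p-values measure the spread between them, which may be technical in part. The procedure was tested on simulated data. Acsl1 overlaps the unconfirmed gene Gm45244 on the opposite strand, which had 64 to 317 counts, and reads of the pair could not be told apart without strand.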

Additional observations from a re-analysis of the deposited data

Results flagged for a closer look

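None of the 10 genes met a limit for a closer look. Among the further genes of the pathway, the response to MTX differed between the genotypes by the interaction in edgeR's quasi-likelihood test for Lipg (log2 5.11, adjusted p 0.0791), Fabp9 (6.80, adjusted p 0.0830), Got2 (2.87, adjusted p 0.0946) and Acsl4 (1.55, adjusted p 0.0983). In each, the flox vehicle libraries were the highest. Fabp9, of the testis, was at 9.72, 12.6 and 7.66 CPM in flox vehicle and at 0 to 0.787 CPM in the other 9 libraries. Acsl4 was at 82.9, 141 and 57.8 CPM in flox vehicle, at 30.4 to 34.5 CPM in KO vehicle, and at 43.7 to 47.0 CPM in both MTX groups. The flox vehicle libraries also had the highest sums of testis germ cell genes, 206 to 601 CPM, and the part of those cells in the interaction was not tested. The calls held in 7 of 19 alternatives for Lipg, 8 of 18 for Fabp9, 6 of 19 for Got2 and 5 of 19 for Acsl4, with the same sign in all of them.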

How the results depend on the processing

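Of 994 log2 fold changes of the 10 genes under an alternative, 910 kept their sign and their side of the limits, 10 lost and 9 gained a call, and 65 changed sign. Sign changes touched 23 of the 50 values, none of them called except that of Gpihbp1 relative to the endothelial sum. The cause was not tested. With 3 libraries per group, SEs of 0.15 to 0.49 limit what the comparisons of groups can show.

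Replicate numbers did not pair the samples: over 12 pairs that share a number the median correlation of residuals was 0.024 (-0.27 to 0.27), against 0.012 for 42 other pairs, and 4 of the 12 exceeded 0.1. With the replicate block, 1 of the 10 genes was called between KO and flox mice under vehicle (Gpihbp1; Slc27a4 had an adjusted p of 0.162 by edgeR's quasi-likelihood test), 0 of 47 pathway genes and 0 of all genes for the interaction, and 2771 of all genes, against 4528, for MTX in flox mice. Values with the block whose sign changed were 0.094 (Slc27a1) and 0.013 (Vldlr) for KO against flox under vehicle, 0.15 (Slc27a1) and 0.098 (Angptl4) under MTX, -0.0054 (Lmf1) for MTX in flox mice, -0.051 (Vldlr) for MTX in KO mice, and 0.052 (Slc27a1) for the interaction.

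Genes called between KO and flox mice under vehicle numbered 0 with a log2 limit of 1.5, 1 without flox vehicle replicate 3 and flox MTX replicate 2 together, and 0 to 2 with 1 library left out. Under MTX they numbered 1 by DESeq2, 3 without the same 2 libraries (Fabp4, Lpl and Vldlr), and 0 to 2 with 1 left out. For MTX in flox mice they numbered 0 to 2 with 1 left out. That pair of libraries was chosen after seeing the data. Between KO and flox mice under MTX, leaving it out also led to calls of 3 pathway genes higher and 14 lower, of the 47 tested. For MTX in KO mice and for the interaction no alternative called any of the 10 genes.

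With 1 library left out, sign changes gave these ranges. KO against flox under vehicle: Lpl -0.14 to 0.45, Fabp4 -0.30 to 0.28, Slc27a1 -0.48 to 0.54, Vldlr -0.51 to 0.18, Acsl1 -0.21 to 0.47. Under MTX: Cd36 -0.18 to 0.19, Slc27a1 -0.45 to 0.18, Angptl4 -0.54 to 0.14. MTX in flox mice: Slc27a1 -0.51 to 0.61, Slc27a4 -0.25 to 0.21, Gpihbp1 -0.12 to 0.57, Lmf1 -0.081 to 0.20, and the median ratio to adipocyte markers -0.14 to 0.37, below 0 without flox vehicle replicate 1 or flox MTX replicate 1. MTX in KO mice: Lpl -0.24 to 0.050, Vldlr -0.13 to 0.33, Angptl4 -0.20 to 0.17, Acsl1 -0.37 to 0.21, Lmf1 -0.0087 to 0.13. Interaction: Slc27a1 -0.82 to 0.30, Lmf1 -0.14 to 0.15.

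Without flox vehicle replicate 3 and flox MTX replicate 2 together, the sign changed for Lpl (-0.14), Fabp4 (-0.30) and Acsl1 (-0.21) in KO against flox under vehicle, for Cd36 (-0.18) under MTX, for Slc27a4 (0.32) and Lmf1 (-0.027) with MTX in flox mice, and for Slc27a1 (0.024) and Slc27a4 (-0.036) in the interaction. With 1 library left out, the last was 0.076 to 0.53, with no change of sign. The same pair left the sign of Slc27a1 under MTX (-0.46) and of Gpihbp1 with MTX in flox mice (0.59) as it was.

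Other sign changes under vehicle were Fabp4 at -0.0085 by DESeq2, -0.0098 with RLE factors and -0.017 under the filter of 10 counts per library, and Acsl1 at -0.0041 under that filter. Cd36 under MTX was -0.010 with the 6 libraries alone. Lmf1 with MTX in flox mice was -0.16 with library size only and -0.0024 with at least 10 counts, and its interaction was -0.0037 without a filter. The interaction of Slc27a1 was 0.029 with library size only. Relative to the endothelial sum, Gpihbp1 was at -0.12 and -0.19 for KO against flox under vehicle and MTX and at 0.033 for MTX in KO mice. Library size as the only scaling moved the median of all genes from -0.045 to 0.12 for KO against flox under MTX, from 0.051 to -0.15 for MTX in flox mice and from -0.051 to 0.13 for the interaction.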
